A study of Mus musculus with 6 samples.

Results

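Slc6a17 and Kcnc4 are adjacent genes on mouse chromosome 3 whose RNA was several-fold more abundant in aortas of mice with Prdm16 deleted in smooth muscle than in control aortas. They were chosen by name, as 2 of the 55487 genes in the count table, and they were chosen because they differed between these same libraries, so their levels are given as a description with no test. Slc6a17 had a normalized count of 28.1 ± 1.84 in Control and 98.3 ± 5.16 in iSM KO aortas (mean ± SD, n = 3 in each group). Kcnc4 had 40.4 ± 2.72 in Control and 132 ± 3.47 in iSM KO aortas (n = 3 in each group). In each gene the lowest iSM KO library lay above the highest Control library. Within 1 Mb, 33 other genes had enough counts to be tested. None of the 33 passed the thresholds for a change, against 2.78% of all genes tested. An FDR under 0.05 was reached by 3, all lower in iSM KO, against 7.56% of all genes tested. Both counts lie near the background and are no result about the region.

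The study sequenced ribosomal RNA-depleted total RNA from aortas of male C57BL/6 mice, 3 iSM KO and 3 Control, with paired-end reads. Mice of both groups carried the Myh11-CreERT2 transgene, which sits on the Y chromosome and places a tamoxifen-inducible Cre recombinase under a smooth muscle promoter, and mice of both groups received tamoxifen. The iSM KO mice were homozygous for a Prdm16 allele with loxP sites around exon 9, and the Control mice, from the same type of cross, had the wild-type allele. Tamoxifen was given as 10 daily doses from 8 weeks of age, and a washout of 2 weeks was followed by a further 60 days. The adventitia was removed from the aortas, and the study's methods give 3 mice per group, as many as there are libraries. Because each library is bulk tissue, a change in the number of cells of a type and a change in the RNA per cell cannot be told apart.

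Totals ran from 24911609 to 40460467 counts per library, the lowest in Control 3. Normalized counts (CPM) are counts divided by the library total, put on the usual per-megaread scale after the totals were adjusted by the TMM method. Prdm16, the targeted transcriptional regulator, fell from 195 ± 24.5 to 95.4 ± 16.5 CPM (log2 fold change -1.03 ± 0.14 SE, FDR = 0.00265, where the FDR is the Benjamini-Hochberg adjusted p of edgeR's quasi-likelihood test). Its fold change was -0.92 without Control 2 and -0.92 without iSM KO 3, short of the fold that a call requires. A gene was called changed with an FDR under 0.05 and a fold change over 2, that is a log2 fold change beyond 1 in size. Of 16565 genes tested, 232 were called higher and 229 lower, or 2.78% in all, and 7.56% had an FDR under 0.05 at any fold. The smooth muscle markers summed to 24292 to 29201 CPM in Control and 26298 to 28852 CPM in iSM KO libraries.

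The SLC6 family to which Slc6a17 belongs comprises membrane carriers that move neurotransmitters, amino acids and related molecules across membranes by coupling them to ion gradients. SLC6A17 is known from neurons, where it resides on synaptic vesicles and carries neutral amino acids such as proline and glycine. Kcnc4 encodes a pore-forming subunit of a voltage-gated potassium (Kv) channel of the Shaw group. Its channel opens upon strong depolarisation, and a segment at the start of the protein plugs the open pore within milliseconds. In arteries, Kv channels as a class let potassium leave the smooth muscle cell, which hyperpolarises the membrane and limits calcium entry and contraction.

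Slc6a17 (ENSMUSG00000027894) occupies chr3:107467543-107518018 on the minus strand of GRCm38 (mm10), a span of 50476 bp. The GENCODE annotation gives it 10 transcripts, of which the longest has 12 exons and 6322 bp, and a reading frame of 724 codons. Kcnc4 (ENSMUSG00000027895) occupies chr3:107438303-107459552, also on the minus strand, with a span of 21250 bp. Its only annotated transcript has 4 exons and 3667 bp, with a reading frame of 628 codons. Transcription therefore runs from Slc6a17 towards Kcnc4, and 7990 bp separate the end of the former from the start of the latter. The 2 start sites are 58.466 kb apart. No other annotated gene overlaps either of them, and no stretch of 100 bp or more in a transcript of another gene reached 95% identity to either. Among stretches of 100 bp or more, the highest identity to Kcnc4 was in Kcnc2, at 83.9% over 149 bp. The highest to Slc6a17 was in Slc6a3, at 78.0% over 150 bp. Longer alignments had lower identity, such as Kcnc4 with Kcnc1 (75.3% over 1335 bp) and Slc6a17 with Slc6a15 (70.3% over 1514 bp).

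Sequence at the 2 genes is shown for the start of the Kcnc4 reading frame, which encodes the pore-plugging segment. Shown too are the bases just before the outermost start site of Slc6a17, which are rich in CpG dinucleotides. The Kcnc4 sequence holds the first 90 coding bases, at chr3:107458801-107458890 of GRCm38, minus strand, with the start codon in capitals. The Slc6a17 sequence holds the 250 bases before the RefSeq start site at 107518018, at chr3:107518019-107518268 of GRCm38.p6, minus strand, with each CpG in capitals.
Kcnc4 coding start: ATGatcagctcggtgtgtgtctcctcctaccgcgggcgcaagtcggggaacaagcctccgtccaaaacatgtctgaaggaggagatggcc
Slc6a17 upstream: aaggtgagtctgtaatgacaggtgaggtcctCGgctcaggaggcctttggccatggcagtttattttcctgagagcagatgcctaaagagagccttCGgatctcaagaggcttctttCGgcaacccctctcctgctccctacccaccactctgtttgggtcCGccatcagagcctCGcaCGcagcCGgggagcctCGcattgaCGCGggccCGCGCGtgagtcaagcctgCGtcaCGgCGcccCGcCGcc

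The Slc6a17 bases hold 18 CpG dinucleotides. In the 300-base window that RefSeq gives for this start site, from 250 bases before it to 50 after it, there are 26, and the GC content is 63.7%. The corresponding window of Kcnc4 has 17 CpG and a GC content of 66.7%, and it lies inside the annotated first exon of Kcnc4, because the RefSeq start is 654 bases downstream of the GENCODE start. The median over all 32851 windows of the RefSeq table is 7 CpG and 52.7% GC. A further RefSeq start inside Slc6a17, at 107500740, has 3 CpG and 48.7% GC. Which of the Slc6a17 starts is used in the aorta was not tested. Both strands were searched for a few short motifs. The GATA-type motif AGATAA, the CArG box bound by serum response factor in muscle genes and the TATA box TATAAA had 0 matches in the 3 windows, against 11.2%, 1.63% and 13.6% of all windows that hold them. The GC box GGGCGG occurred once in the Kcnc4 window and once in that of the outermost Slc6a17 start, and it is in 35.7% of all windows. The E box CANNTG occurred 1 time at Kcnc4, 2 times at the outermost and 3 times at the internal start of Slc6a17. It is in 72.3% of all windows. A match is a stretch of letters and not a binding site, and no relation between these matches and the levels was tested.

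The counts of Slc6a17 were 909, 1161 and 642 in Control 1 to 3 and 4119, 3542 and 3373 in iSM KO 1 to 3. Scaled to the libraries, these are 27.1, 30.2 and 26.9 CPM in Control and 101.1, 101.5 and 92.3 CPM in iSM KO. The iSM KO libraries were all high, the Control libraries were all low, and the gap between the groups was wider than the range within either. The fitted log2 fold change was 1.81 ± 0.08 (SE), and the iSM KO mean was 3.50 times the Control mean.

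The counts of Kcnc4 were 1318, 1474 and 1037 in Control 1 to 3 and 5276, 4576 and 4972 in iSM KO 1 to 3. Scaled in the same way, these are 39.3, 38.4 and 43.5 CPM in Control and 129, 131 and 136 CPM in iSM KO. Again no iSM KO library overlapped the Control range. The fitted log2 fold change was 1.71 ± 0.08 (SE), and the iSM KO mean was 3.27 times the Control mean.

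**Figure D1:**
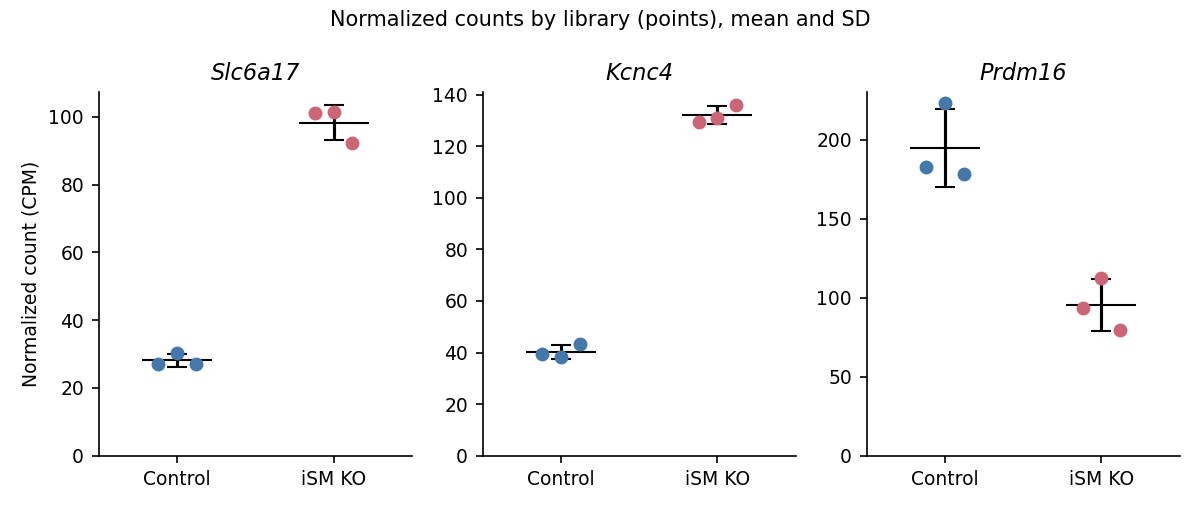
Normalized counts (CPM) of Slc6a17, Kcnc4 and the targeted gene Prdm16 in each Control and iSM KO library. Points are libraries, and the line and bars are the mean and SD of the 3 libraries in each group. Slc6a17 lies between 26.9 and 30.2 in Control and between 92.3 and 101.5 in iSM KO, Kcnc4 between 38.4 and 43.5 and between 129 and 136, and Prdm16 is lower in every iSM KO library than in every Control library.

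Ranked by log2 fold change from the highest, Slc6a17 was 106th and Kcnc4 121st of 16565 genes, a place that the choice of the genes already fixes in part. Replicates of both genes differed little, which a choice by difference between the groups also favours in part. The coefficient of variation between libraries was 6.56% in Control and 5.25% in iSM KO for Slc6a17, and 6.73% and 2.62% for Kcnc4, while the median over all genes tested was 13.0% and 9.23%. That median covers genes of every level. By CPM, Slc6a17 stood at the 73.1 percentile in Control and the 92.4 in iSM KO, and Kcnc4 at the 80.4 and the 94.8. Genes of like level were not compared. Counting error alone would give Slc6a17 3.42% and 1.65% and Kcnc4 2.83% and 1.43%.

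The proportion of the 2 genes to each other was compared within each library. For every 100 counts of Kcnc4 there were 69.0, 78.8 and 61.9 counts of Slc6a17 in Control 1 to 3, and 78.1, 77.4 and 67.8 in iSM KO 1 to 3. The iSM KO values fall inside the Control range, so the proportion of the transcripts to each other did not separate the groups. On the log2 scale the ratio averaged -0.52 (SD 0.17) in Control and -0.43 (SD 0.11) in iSM KO, a difference of 0.095 that is smaller than the spread within either group. This ratio is taken within a library and needs no scaling between libraries.

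Counts rise with transcript length, so the levels of the 2 genes were compared per kb of the longest transcript. On that scale Slc6a17 was at 4.44 ± 0.29 CPM per kb in Control and 15.5 ± 0.82 in iSM KO, and Kcnc4 was at 11.0 ± 0.74 and 36.1 ± 0.95 (SD, n = 3 in each group). Per length, Slc6a17 was therefore at 0.405 of the level of Kcnc4 in Control and at 0.432 in iSM KO. With the summed length of all exons, 10283 bp for Slc6a17, the ratios were 0.249 and 0.265. Kcnc4 was the higher of the pair in each library on both lengths. Among the tested genes with a known length, the per-length level of Slc6a17 stood at the 57.2 percentile in Control and the 85.4 percentile in iSM KO, and that of Kcnc4 at the 79.3 and the 94.3 percentile.

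The region around the pair was then examined, since neighbours were not used to choose it. The count table lists 83 other genes within 1 Mb of the outer ends of the pair, of which 33 were tested. No gene among them was called changed by edgeR, DESeq2 or limma-voom, against the 2.78% of all genes given above, and the unadjusted p was under 0.05 for 9, 6 and 8 of them. The share of all genes tested at that unadjusted p is not given, here or below. Counts at an unadjusted p therefore have no background beside them and are no result about a set. At an FDR under 0.05 with any fold there were 3 genes, all lower in iSM KO, against the 7.56% of all genes. With 33 genes tested, both the 0 called and these 3 lie near the background and are no result about the region. The 33 neighbours had a median log2 fold change of -0.15, with 9 above and 24 below 0, and ranged from -0.91 to 0.65, while the median of all genes tested was -0.014. Within 250 kb, 6 genes were tested, with 0 called and 0 at an FDR under 0.05, which is near the same background.

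**Figure D2:**
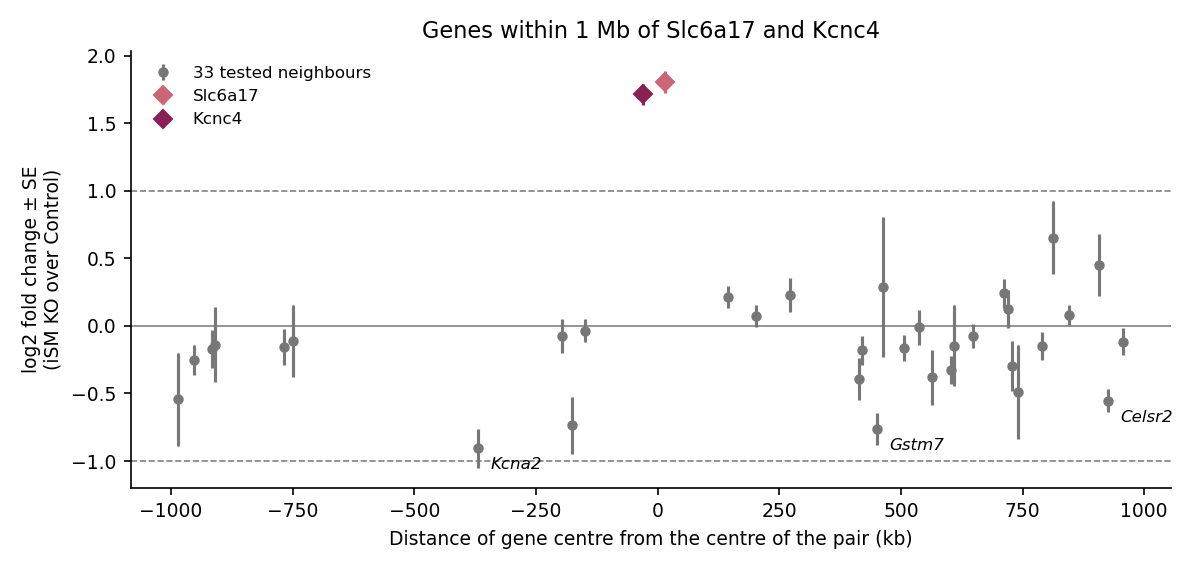
Log2 fold change (iSM KO over Control, points) with its SE (bars) of Slc6a17, Kcnc4 and the 33 tested genes within 1 Mb, against the distance of each gene's centre from the centre of the pair in kb. Dashed lines mark a log2 fold change of 1 in either direction. Slc6a17 at 1.81 and Kcnc4 at 1.71 stand above the lines, and all neighbours lie between -0.91 and 0.65.

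The tested genes nearest to Kcnc4 were Rbm15, Slc16a4 and Lamtor5. Rbm15, an RNA-binding adaptor of the RNA methylation machinery, lies 105 kb away and had 37.0 CPM in Control and 36.1 in iSM KO (log2 fold change -0.035, FDR = 0.850). Slc16a4, a monocarboxylate transporter family member, had 2.14 and 1.28 CPM (-0.74, FDR = 0.0749), and Lamtor5, a subunit of the lysosomal Ragulator complex, had 13.3 and 12.6 CPM (-0.073). On the side of Slc6a17 lay Ahcyl1, a regulator of the IP3 receptor, with 111 and 116 CPM (0.071), and Csf1, the macrophage growth factor, with 59.8 and 70.1 CPM (0.23, FDR = 0.332). These 5 genes flank a pair whose own log2 fold changes were 1.81 and 1.71. Nearer to the pair, Ubl4b had no count in any library and Gm24383 had at most 2 counts in a library, so neither was tested.

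The 3 genes with an FDR under 0.05 lay farther off. Kcna2, which encodes another Kv pore subunit, lies 323 kb from the pair and had 5.58, 5.85 and 6.08 CPM in Control against 3.31, 2.95 and 3.07 CPM in iSM KO (log2 fold change -0.91 ± 0.14 SE, FDR = 0.00639). Its fold change was opposite in sign to that of Kcnc4. Gstm7, a glutathione transferase, went from 9.55 to 5.63 CPM (-0.76 ± 0.12 SE, FDR = 0.00589), and Celsr2, an adhesion receptor of the cadherin family, from 29.4 to 20.0 CPM (-0.55 ± 0.09 SE, FDR = 0.00558).

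Among the Kv pore subunits, Kcnc4 was below Kcnh2 in Control and above it in iSM KO. Of the 40 such genes ordered per kb of the longest transcript, the highest in Control was Kcnh2, an ERG-type channel gene, at 33.7 ± 3.02 CPM per kb. Kcnc4 was at 11.0 ± 0.74, and Kcnd3, a gene for an A-type channel, was lower at 5.76, with libraries from 4.23 to 6.95. In iSM KO aortas Kcnc4 was the highest at 36.1, with libraries from 35.3 to 37.1, above Kcnh2 at 28.0, with libraries from 27.0 to 29.8. Kcnd3 was at 8.01. Kcnc4 made up 14.4 ± 2.09% of the summed per-length level of all 40 genes in Control and 37.5 ± 0.89% in iSM KO. By library the shares were 13.9%, 12.6% and 16.6% in Control and 37.4%, 36.6% and 38.4% in iSM KO.

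Kcnc1 and Kcnc2, of the same channel group, stood far below Kcnc4, at 0.025 to 0.068 CPM per kb in Control and 0.035 to 0.17 in iSM KO. In CPM, Kcnc1 averaged 0.19 in Control and 0.28 in iSM KO and did not have enough counts to be tested. Kcnc2 rested on 24 to 45 counts in the iSM KO libraries and had 0.34 and 0.88 CPM, with a log2 fold change of 1.34 ± 0.36 (SE, FDR = 0.0560). The annotated transcripts of Kcnc1 and Kcnc2 match that of Kcnc4 at 75.3% and 73.6% identity over their longest alignments.

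Of the 39 Kv pore subunits other than Kcnc4, 18 were tested, and 2 of the 18 were called changed, 1 in each direction, where 2.78% of all genes tested were called. Kcnf1, which encodes a modulatory subunit that forms no channel alone, rose from 1.70 to 5.63 CPM (log2 fold change 1.72 ± 0.25 SE, FDR = 0.00406). Kcnq3, which encodes a subunit of the neuronal M-type channel, fell from 12.4 to 2.26 CPM (-2.45 ± 0.16 SE, FDR = 7.45e-05). A further 2 genes had an FDR under 0.05 at a smaller fold, Kcna5 (0.90, FDR = 0.0425) and Kcna2 (-0.91), which makes 4 of 18 against 7.56% of all genes tested. The remaining 14 did not pass, the median of the 18 was -0.22, and Kcna10 had no count. Kcnh2, the highest per length in Control, had 142 and 118 CPM (FDR = 0.117).

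**Figure D3:**
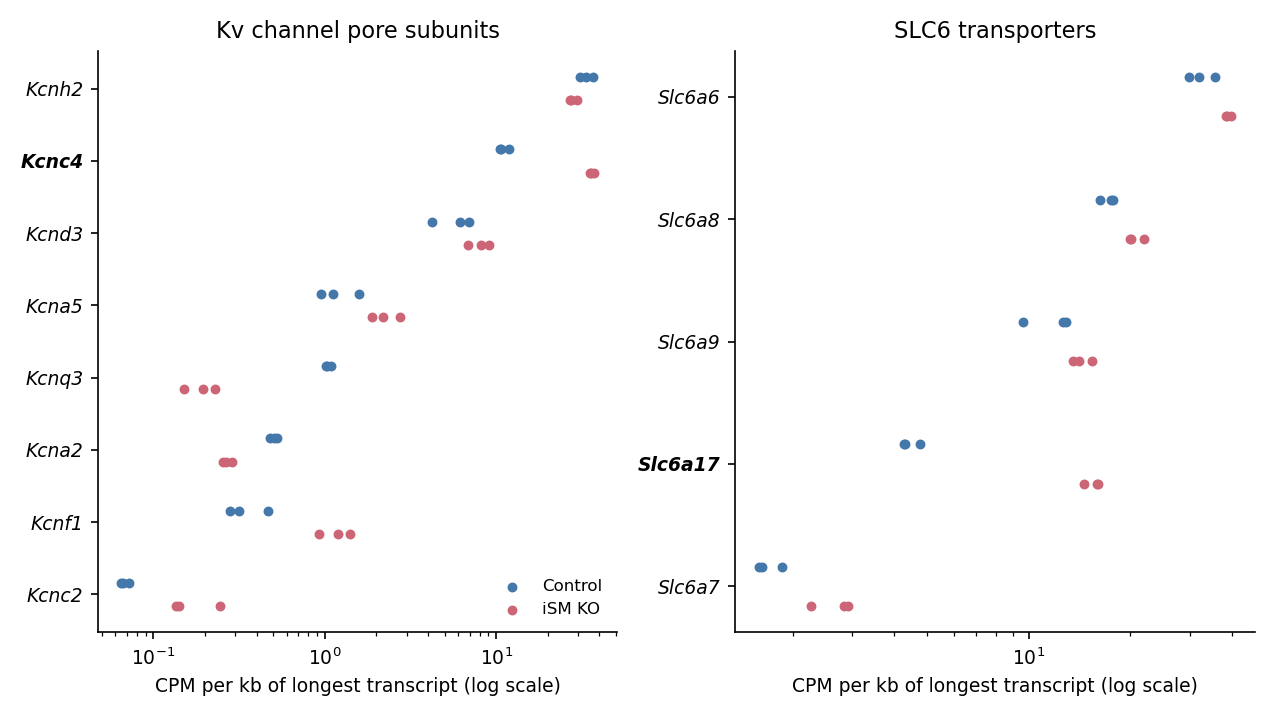
Level in CPM per kb of the longest transcript, on a log axis, of the tested Kv pore subunits and SLC6 transporters that the text names, in each library, with Control above iSM KO for each gene and genes ordered by the Control mean. Kcnc4 moves from 10.5 to 11.9 in Control to 35.3 to 37.1 in iSM KO, above Kcnh2, and Slc6a17 moves from 4.26 to 4.78 to 14.6 to 16.1, where it overlaps Slc6a9.

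Genes for the auxiliary subunits of Kv channels, which sit beside the pore and set gating and traffic, were also counted. The table lists 14, of which 9 were tested, and 1 of the 9 was called, against 2.78% of all genes tested. This was Dpp10, whose product binds A-type channels. Its values were 13.7, 5.26 and 5.33 CPM in Control and 33.1, 35.0 and 42.5 CPM in iSM KO (log2 fold change 2.18 ± 0.33 SE, FDR = 0.00536). Kcne4, for a small subunit that inhibits some channels, had an FDR under 0.05 with 19.8 and 13.5 CPM (-0.55, FDR = 0.0106), so that 2 of 9 passed that FDR, against 7.56% of all genes tested, and 7 did not. Kcne3, whose product is known to associate with channels of the Kcnc4 protein, had 0.46 and 0.19 CPM (-1.27, FDR = 0.281). Kcnab1, a cytoplasmic subunit, had 121 and 115 CPM (FDR = 0.605), and Kcne1 had no count. The median of the 9 was -0.0058.

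In the SLC6 family the order per kb of the longest transcript in Control was Slc6a6, the taurine transporter, at 32.5 CPM per kb, Slc6a8, the creatine transporter, at 17.2, Slc6a9, a glycine transporter, at 11.7 with libraries from 9.65 to 12.9, and Slc6a17 at 4.44 ± 0.29. Slc6a7, a proline transporter, was below it at 1.69. In iSM KO aortas Slc6a6 was at 39.0, Slc6a8 at 20.7, Slc6a17 at 15.5 and Slc6a9 at 14.4. The libraries of Slc6a17, from 14.6 to 16.1, and of Slc6a9, from 13.5 to 15.4, overlapped, so these neighbours are not separated. With the summed length of all exons the means were 9.56 for Slc6a17 and 9.72 for Slc6a9, in the opposite order. The share of Slc6a17 in the summed per-length level of the 20 genes was 6.53 ± 0.56% in Control and 16.7 ± 0.60% in iSM KO.

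Of the 19 SLC6 genes other than Slc6a17, 6 were tested and none was called changed by edgeR, DESeq2 or limma-voom. The unadjusted p was under 0.05 for 4 of the 6 with each tool, a count with no share of all genes beside it. With 2.78% of all genes tested called by edgeR, 0 of 6 is near the background and no result about the family. All 6 had a positive log2 fold change, from 0.26 to 0.66, with a median of 0.29. Slc6a7 had an FDR under 0.05, with 6.27, 5.33 and 5.45 CPM in Control and 9.84, 9.51 and 7.61 CPM in iSM KO (0.66 ± 0.14 SE, FDR = 0.0263), and its FDR was over 0.05 without Control 2, Control 3, iSM KO 1 or iSM KO 2 in turn. Slc6a6 had 201 and 241 CPM (FDR = 0.110), Slc6a8 had 68.3 and 81.9 CPM (FDR = 0.0748) and Slc6a9 had 40.8 and 49.9 CPM (FDR = 0.184). Slc6a15, the closest relative of Slc6a17 and likewise a neutral amino acid carrier, had 0.28 and 0.42 CPM and was not tested. Its annotated transcript matches that of Slc6a17 at 70.3% identity over 1514 bp.

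**Figure D4:**
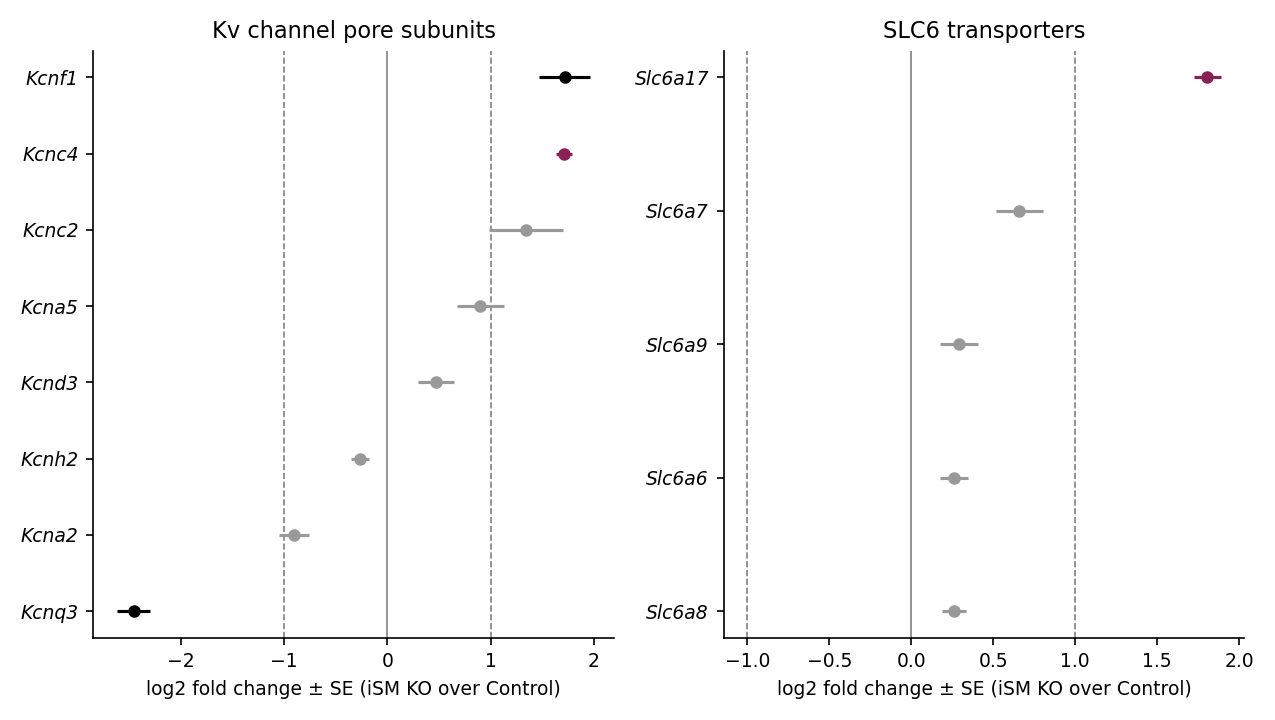
Log2 fold change (iSM KO over Control, points) with its SE (bars) of the tested Kv pore subunits and SLC6 transporters that the text names, with the selected gene of each family in colour and the other called genes in black. Dashed lines mark a log2 fold change of 1 in either direction. Kcnf1 at 1.72 lies beside Kcnc4 at 1.71, Kcnq3 is at -2.45, and no SLC6 gene other than Slc6a17 exceeds 0.66.

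Other carriers of neutral amino acids, outside the SLC6 family, were examined beside Slc6a17. The table lists 20, of which 18 were tested, 1 was called changed, against 2.78% of all genes tested, and the median was 0.0023. An FDR under 0.05 was reached by 2 of the 18, against 7.56% of all genes tested. Slc38a3, a glutamine carrier, was called lower at low counts, with 1.57 and 0.40 CPM (log2 fold change -1.98, FDR = 0.0123). Slc16a10, a carrier of aromatic amino acids, had 10.3 and 17.03 CPM (0.72, FDR = 0.00561), and 16 genes did not pass. The 3 with the most counts were Slc38a2 with 253 and 240 CPM, Slc38a10 with 102 and 117 CPM and Slc1a5 with 76.5 and 66.3 CPM.

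The compartment in which SLC6A17 is known from neurons was checked through 23 genes of synaptic vesicles and their release machinery. Of these 17 were tested, and with edgeR none was called and none had an FDR under 0.05, while the unadjusted p was under 0.05 for 2 genes. Over all genes tested the shares were 2.78% called and 7.56% at an FDR under 0.05, so that these counts of 0 lie near the background. DESeq2 gave 1 gene with an FDR under 0.05 and limma-voom gave 0. The median log2 fold change was 0.13. Vamp2, a vesicle fusion protein gene, had 94.2 and 103 CPM, Sypl, a synaptophysin relative, had 54.3 and 49.4 CPM, and Stx1a, a fusion partner at the cell membrane, had 19.0 and 22.3 CPM. Slc18a3, the vesicular acetylcholine transporter gene, had no count in any library.

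Markers of other cell types that an aorta could hold were summed in each library. Beside the counts of called markers that follow, the share called over all genes tested with edgeR was 2.78%. The 12 neuron markers summed to 7.52 to 9.40 CPM in Control and 8.15 to 19.2 CPM in iSM KO, so the groups overlapped. Of the 6 tested, Tubb3, a tubulin gene, was called higher (1.49 and 4.20 CPM, FDR = 0.00622) and the other 5 did not pass, and Dbh, which marks noradrenergic neurons, had no count. The 8 Schwann cell markers summed to 5.10 to 8.27 and 5.72 to 11.2 CPM with 0 of 4 tested called. Adipocyte markers were at 30.3 to 185 CPM in Control and 8.77 to 15.2 CPM in iSM KO, and 5 of the 6 tested, Adipoq, Plin1, Cidec, Fabp4 and Cfd, were called lower with edgeR, and 1 of the 6 with limma-voom. Endothelial markers were at 473 to 1000 and 255 to 759 CPM with 0 of 7 called, and macrophage markers at 30.7 to 35.1 and 12.5 to 36.7 CPM with 0 of 7 called. All 7 endothelial markers had a negative log2 fold change, from -0.91 to -0.59, with an unadjusted p under 0.05 in edgeR for 1. All 7 macrophage markers were negative too, from -1.07 to -0.23, with an unadjusted p under 0.05 in edgeR for 2. Fibroblast markers were at 173 to 372 and 139 to 208 CPM, and all 7 were lower in iSM KO with an unadjusted p under 0.05 in edgeR. Of these, 1 was called lower with edgeR, Clec3b, and 0 were called with limma-voom.

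Among the muscle markers, the cardiomyocyte list summed to 134 to 156 CPM in Control and 893 to 910 CPM in iSM KO, and most of the latter was Tnnt2, cardiac troponin T, which went from 13.9 to 718 CPM (log2 fold change 5.69, FDR = 1.71e-06). Myh6, which encodes the heart myosin heavy chain, was at 0.42 to 1.79 and 0.37 to 0.79 CPM. Skeletal muscle markers were at 4.03 to 4.74 and 3.47 to 3.66 CPM with 0 of 3 called, and T and B cell markers were at 0.51 to 1.17 and 0.49 to 0.77 CPM with none tested. In the smooth muscle list Des, the intermediate filament gene desmin, was called higher (138 and 325 CPM, FDR = 0.00381). The part of the adipocyte markers, and of these other shifts, in the levels of Slc6a17 and Kcnc4 was not tested.

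Lastly, the genes whose values across the 6 libraries lay closest to those of each member were listed. Closeness is the root mean square difference, over the libraries, of log2 CPM after subtraction of each gene's Control mean, and its median over 16564 genes was 1.30 from Slc6a17 and 1.23 from Kcnc4. The nearest to Slc6a17 was Kcnc4 at 0.14, with Reep1, for a protein that shapes the endoplasmic reticulum, also at 0.14. Cd44, the hyaluronan receptor, was at 0.15, Coro6, a coronin, at 0.15 and Myo18b, an unconventional myosin, at 0.16. The nearest to Kcnc4 was Cds1, an enzyme of phospholipid synthesis, at 0.098, followed by Slc6a17 at 0.14. Pde1b, a calmodulin-dependent phosphodiesterase, was at 0.18, Hgf, hepatocyte growth factor, at 0.18 and Drd1, a dopamine receptor, at 0.19.

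None of the 8 genes other than the pair lies on chromosome 3. They were higher in iSM KO by log2 fold changes of 1.61 to 1.95, which is what closeness in level selects. Across 6 libraries that split into 2 groups, the order of these neighbours is loose. With each library left out in turn, Kcnc4 ranked between 1 and 8 for Slc6a17, and Slc6a17 between 2 and 6 for Kcnc4, of 16564 genes. With Pearson's correlation as the measure, which ignores the size of a change, the ranks were 41 and 37. Both members were chosen because they differed between these same libraries, so their ranks for each other are fixed in part by that choice.

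**Figure D5:**
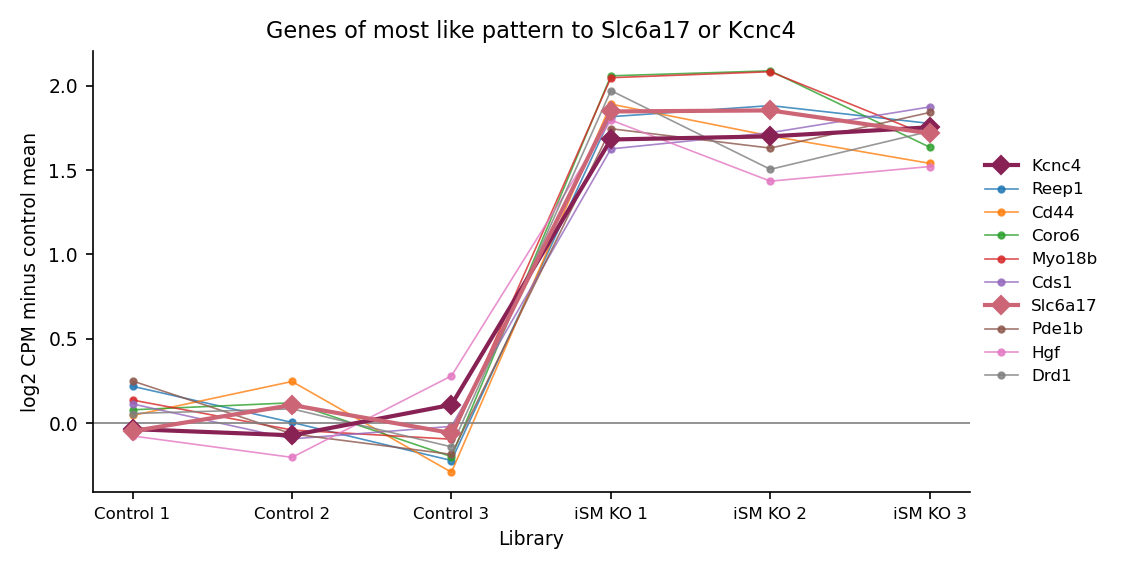
Log2 CPM minus the Control mean in each of the 6 libraries for Slc6a17, Kcnc4 (diamonds, thick lines) and the 8 other genes closest to either (circles, thin lines). Lines join the values of a gene and imply no order of the libraries. Kcnc4 lies between -0.07 and 0.11 in Control and between 1.68 and 1.75 in iSM KO, and Slc6a17 between -0.06 and 0.11 and between 1.72 and 1.85.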

How the data were processed

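Aortic RNA of 3 Control and 3 iSM KO mice was measured. The deposited values are expected counts per gene, which the authors obtained with DRAGEN from paired-end reads aligned against mm10 (Ensembl), neither normalized nor filtered. In each library 10.9% to 12.2% of them were not whole, and how reads matching several genes were shared is not given in the sources used here. Counts were rounded. Genes with a count over 10 in all libraries of at least 1 group entered edgeR's quasi-likelihood test (edgeR 4.0.16, R 4.3.3, TMM factors and no covariates), with Benjamini-Hochberg adjustment over 16565 genes. The same steps were tested on simulated data. Positions (GENCODE M21, GRCm38) matched 16542 tested genes, and start windows came from RefSeq (GRCm38.p6).

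Members, lists and tests were chosen with earlier results of these data known. Groups came from the labels, and all columns were matched by name. The study's own gene table holds the Control columns in another order (for Kcnc4, its 1, 2 and 3 are the deposited 2, 3 and 1), and Control numbers here are the deposited ones. Named genes are Prdm16, the pair, the 3 nearest tested genes on each side and those within 1 Mb with an FDR under 0.05, called genes and the 3 of highest CPM in each list, other Kcnc genes, Slc6a15, the 5 genes closest to each member, called markers and those with no count. Some results under this rule are not reported here. Kcna5, Kcne3, Kcne4, Slc6a7, Slc16a10, Myh6, Kcnd3 and the untested Ubl4b and Gm24383 were named after their values were seen. Libraries of 1 group differed by more than counting noise, so none was a duplicate. The study's methods give 3 mice per group, but the labels tie no library to a mouse. The alternatives tried were limma-voom (limma 3.58.1), DESeq2 1.42.0 or its size factors alone, a block for replicate number, filterByExpr or no filter, omission of each library, other distances, lengths and measures of closeness, and counts left unrounded.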

Additional observations from a re-analysis of the deposited data

How the results depend on the processing

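The log2 fold changes of Slc6a17 and Kcnc4 ran from 1.77 to 1.86 and from 1.68 to 1.76 with each library left out, and the difference of their mean log2 ratio from 0.011 to 0.19. No setting called a gene within 1 Mb. Without a filter, 30712 genes entered the fit, of which 282 were called higher and 349 lower (232 and 229 with it). There 4 Kv pore subunits were called with 8 at an FDR under 0.05. Other neutral amino acid transporters had 2 and 5, and synaptic vesicle genes had 1 at an FDR under 0.05. DESeq2 gave 4 and 1 at an FDR under 0.05 in the last 2 lists. The share of all genes under each alternative, and the number of each list tested without a filter, are not given here or below. Counts for a list or for the region under an alternative therefore have no background beside them. They are no result about the list or the region. Within 250 kb, 0 neighbours had an FDR under 0.05. With the summed exon length the ratio of Slc6a17 to Kcnc4 was 0.249 in Control and 0.265 in iSM KO. By Pearson's correlation, 0 of the 5 closest genes were shared with the main list for Slc6a17 and 0 for Kcnc4.

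With libraries left out, lower genes ran from 128 to 317, at 133 without iSM KO 1 and 128 without iSM KO 2. SLC6 genes at an FDR under 0.05 ran from 0 to 1. Neutral amino acid transporters ran from 1 to 2 called and 2 to 4 at an FDR under 0.05, and synaptic vesicle genes from 0 to 1 on both counts, with the highest values of these 2 lists without iSM KO 3. Shared closest genes ran from 2 to 4 for Slc6a17 and from 1 to 4 for Kcnc4. Same-numbered libraries did not deviate together (correlations of -0.13, -0.046 and -0.11), so numbers do not pair the libraries, and with the replicate number as a block 0 SLC6 genes had an FDR under 0.05. The cause of these shifts was not tested. Depth limits Kcnc1, Kcnc2 and Slc6a15, which rest on few counts.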
